A study of Mus musculus with 4 samples.

Results

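The genes described here are 9 genes of branched-chain amino acid metabolism, out of 16442 in a ribosome profiling table of mouse leukaemia stem cells. They are the transaminases Bcat1 and Bcat2, the parts of the branched-chain ketoacid dehydrogenase complex (Bckdha, Bckdhb, Dbt and Dld), the kinase Bckdk, and the transporter chains Slc7a5 and Slc3a2. The genes were chosen by name, with results of these libraries in view. Among those was the footprint difference of Bcat1, so its differences are given as a description with no test.

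Leucine, isoleucine and valine enter many cells through a transporter made of the Slc7a5 light chain, which carries the amino acid, and the Slc3a2 heavy chain, which holds it at the cell surface. Bcat1 in the cytosol and Bcat2 in mitochondria then move the amino group to ketoglutarate, giving glutamate and a branched-chain ketoacid, and both enzymes can also run backwards. The ketoacid is broken down irreversibly by the dehydrogenase complex in mitochondria, which Bckdk switches off by phosphorylating its E1 alpha subunit, and Bcat1 is known from myeloid leukaemias as an enzyme of leukaemia-propagating cells.

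The series holds 4 libraries of leukaemia stem cells from bone marrow of C57BL/6 animals with leukaemia, 2 labelled WT and 2 labelled as knockouts of Rreb1, a zinc finger transcription factor. The genotype field of knockout replicate 2 reads Rreb2-KO, and that library was grouped by its title. The extent of the deletion, the way the leukaemia was made, the age and number of animals, and any treatment are not given in the sources used here. Since nothing ties the replicates to separate animals, the tests see only the spread from library to library. In each library ribosome footprints, the mRNA fragments left under ribosomes after nuclease digestion, were set against input RNA of the same lysate.

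Assigned footprint reads ranged from 274183 to 878068, with both KO-labelled libraries below both WT libraries, and input reads from 17037492 to 19121997. Levels are in RPKM, reads per kilobase scaled to the assigned reads of the library, counted over the coding sequence for footprints and over a longer stretch of the transcript for RNA. Below, values of a group are given as replicate 1, then replicate 2. For Rreb1 the WT libraries had 14.1 and 12.8 RPKM of footprints and the KO-labelled libraries 12.9 and 8.19 (limma, adjusted p = 0.672), so the label could not be checked by them. The RNA of Rreb1 rose from 3.33 and 3.25 RPKM to 6.10 and 6.93 RPKM (log2 difference 0.81 ± 0.09, limma, adjusted p = 0.000283, with the SE after ±). Of 14 listed stem and progenitor markers 11 were in the table, and among them Myb, Hoxa9, Meis1, Kit, Cd34 and Flt3 had RNA in every library. Some levels in WT were low, at 1.97 and 2.32 RPKM for Kit and 0.0868 and 0.685 RPKM for Ly6a. The presence of such RNA does not establish the stem cell label. These are bulk samples, in which a change in the share of a cell type and a change in RNA per cell cannot be told apart.

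Bcat1 went from nearly no signal in WT to clear signal in both KO-labelled libraries, in footprints and in RNA. No footprint read was assigned to it in either WT library, while the KO-labelled replicates 1 and 2 had 15 and 9 reads, or 56.8 and 45.3 RPKM. These are the smallest whole reads that fit the RPKM values, and the true reads may be a common multiple of them. With such a multiple the floor below would be lower in RPKM and the fold bound higher. Set against a floor of 3 reads over both WT libraries together, or 2.70 RPKM, footprints were at least 19.2-fold higher in the KO-labelled group. Input RNA gave 0 and 6 reads in WT and 833 and 821 reads in the KO-labelled libraries, that is 0 and 0.0354 RPKM against 4.85 and 5.17 RPKM. The pooled ratio per assigned read was 289.9, with an exact 95% interval of 132.9 to 791.0. This interval and those below cover counting error only. The groups did not overlap in either readout, beside 52.5% of all genes tested in footprints and 82% in RNA. Bcat1 was chosen with this difference in view, so its values are a description only. The input RNA rests on far more reads than the footprints.

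The RefSeq table (GRCm38.p6) holds 2 start sites for Bcat1 on the minus strand, and the 250 bases before each are shown because this is the gene that went from near 0 to expressed. The second start lies downstream of the first, so its window falls within the span of the gene. CG dinucleotides, the sites of DNA methylation, are in capitals.
Bcat1 first window: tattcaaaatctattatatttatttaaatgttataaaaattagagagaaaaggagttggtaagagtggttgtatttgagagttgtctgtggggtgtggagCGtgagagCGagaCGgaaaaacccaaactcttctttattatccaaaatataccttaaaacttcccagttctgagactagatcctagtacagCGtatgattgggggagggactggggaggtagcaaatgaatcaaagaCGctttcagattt
Bcat1 second window: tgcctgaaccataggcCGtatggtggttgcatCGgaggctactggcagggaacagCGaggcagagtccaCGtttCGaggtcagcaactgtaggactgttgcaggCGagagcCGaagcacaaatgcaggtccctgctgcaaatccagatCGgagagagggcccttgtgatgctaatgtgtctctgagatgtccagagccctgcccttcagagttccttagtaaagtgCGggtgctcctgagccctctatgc
The first window, at chr6:145076158-145076407, holds 5 CG and the second, at chr6:145048813-145049062, holds 9. Over 32851 windows of the same length the median was 6 CG, with quartiles of 2 and 16, and 44.4% and 59.7% of windows held fewer CG than the first and the second. The table held 10 windows for 7 of the 9 genes, without Slc7a5 and Dbt. The E-box CACGTG, present on either strand in 6.02% of all windows, and the amino acid response element TGATGNAA, present in 3.45%, were found in 0 of these 10 windows, which says only that these letters are not there. No readout of the series measures the promoters.

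**Figure D1:**
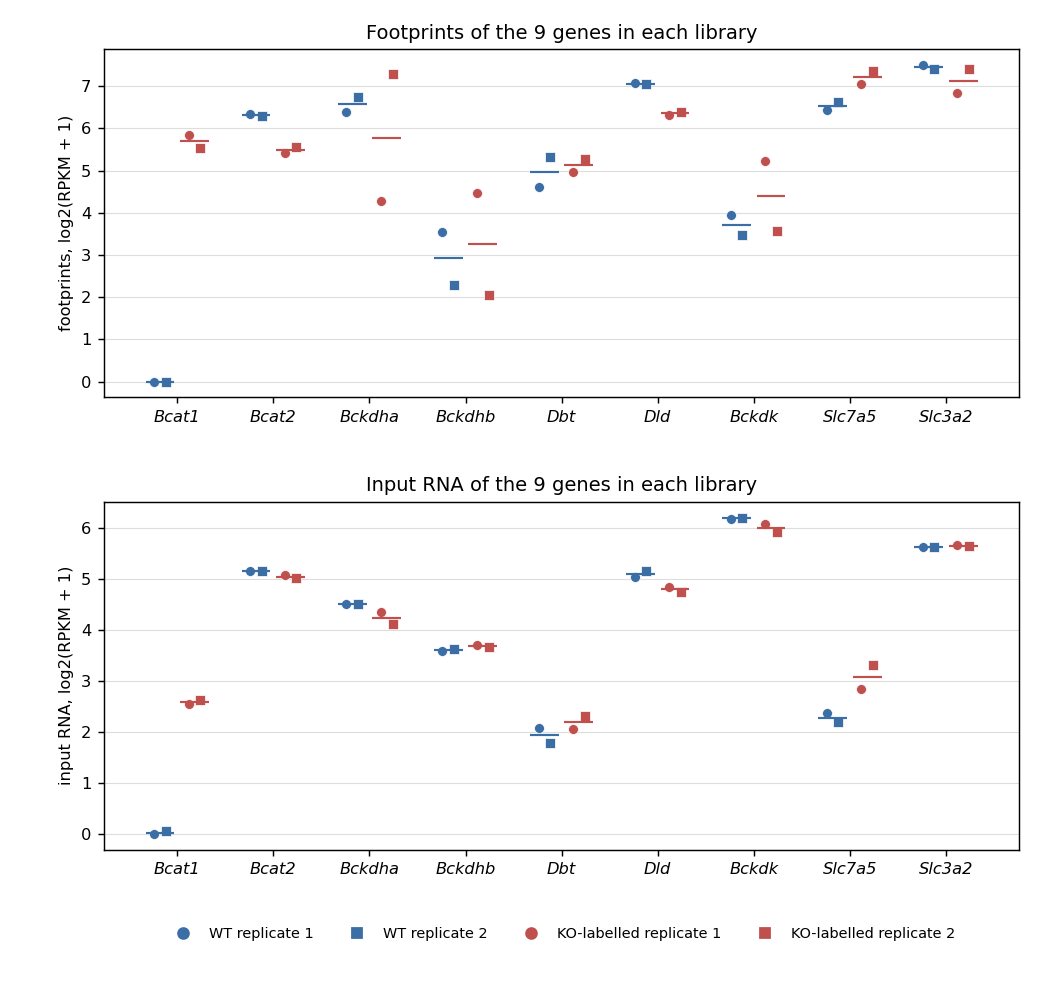
Levels of the 9 genes in each library, footprints in one panel and input RNA in the other, as log2(RPKM + 1); circles are replicate 1, squares replicate 2, blue WT and red KO-labelled, and bars are group means. Bcat1 sits at 0 footprints in both WT libraries and at 56.8 and 45.3 RPKM in the KO-labelled libraries, and Bckdha has the widest gap between KO-labelled replicates.

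Bcat2, the mitochondrial transaminase, had lower footprints in both KO-labelled libraries but did not pass the test. Its footprints were 80.2 and 77.5 RPKM in WT and 41.9 and 46.4 RPKM in the KO-labelled libraries (log2 difference -0.82 ± 0.28, SE, n = 2 per group, limma, adjusted p = 0.233, unadjusted p = 0.0339). The groups did not overlap. Its RNA lay close together, at 34.6 and 34.5 RPKM against 32.7 and 31.5 RPKM (log2 difference -0.10 ± 0.06, limma, adjusted p = 0.214).

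Bcat1 made up 57.5% and 49.4% of the footprint RPKM of both transaminases in the KO-labelled libraries and 0% in WT. In RNA its share was 12.9% and 14.1% in the KO-labelled libraries, against 0% and 0.103% in WT. In these libraries Bcat1 held a larger share of the footprints than of the RNA, both per counted length. The lengths recovered for footprints and RNA were 725 and 9322 bases for Bcat1, and 1179 and 3900 bases for Bcat2. For Bcat1 the 725 is the smallest length that fits, and the length counted may be a multiple of it. The gap between the shares depends on these lengths and is no measure of translation.

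Of the 9 genes, 7 passed the filter on low values, a CPM (reads scaled to the library's total) of 20 or more in 2 or more libraries, while Bckdhb and Bckdk did not. Bcat1 passed through its KO-labelled libraries alone and is left out of the counts that follow. In footprints, 0 of the other 6 passed an adjusted p of 0.05, and 2 of them (Bcat2 and Dld) had an unadjusted p under 0.05 in limma. Of all 6390 genes tested, 1.06% passed, by limma, 1164 reached 0.05 before adjustment, and limma-voom run on the recovered reads passed 72. In RNA, 1 of the 6 rose (Slc7a5) and 2 fell (Bckdha and Dld), where 60.8% of all genes tested passed, 33.1% higher and 27.7% lower. Groups did not overlap for 4 of the 6 in footprints and 5 of the 6 in RNA, beside 52.5% and 82% of the genes tested. The 6 had a median log2 difference of -0.52 in footprints and -0.04 in RNA, and all genes tested -0.13 and 0.04. These are a description of 6 genes, and nothing particular to the pathway is read from them.

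**Figure D2:**
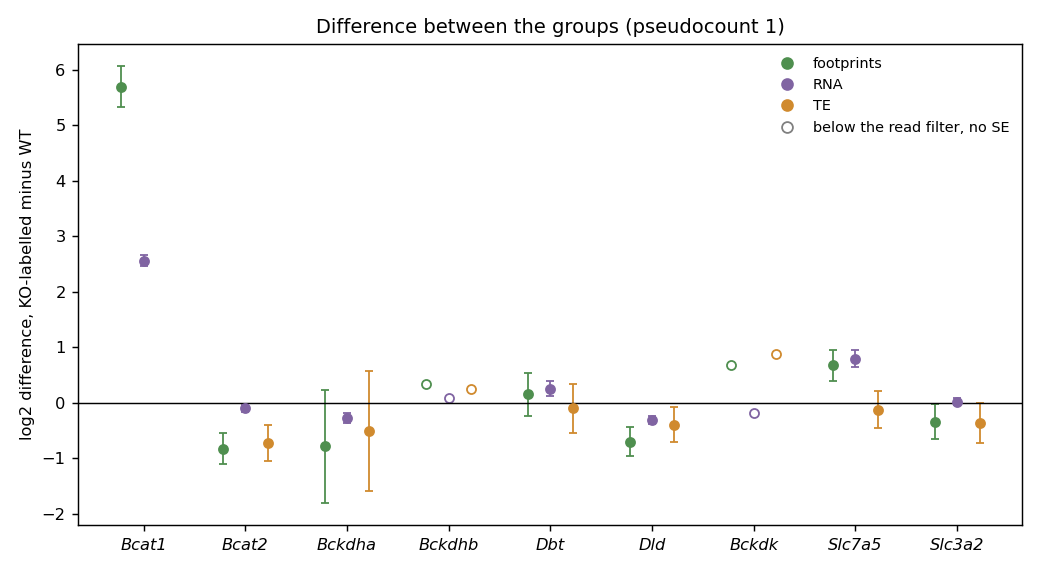
Log2 difference, KO-labelled minus WT, for footprints, RNA and their ratio (translational efficiency), with bars of 1 standard error from limma where the gene was tested. Apart from Bcat1, the values lie between -0.82 (Bcat2 footprints) and 0.88 (Bckdk efficiency, not tested), and the widest error bars are those of Bckdha. The Bcat1 points depend on the pseudocount and are no fold bound, and its efficiency is not drawn.

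Within the dehydrogenase complex, the RNA of 2 subunits was modestly lower in the KO-labelled libraries. Dld, the E3 subunit that reoxidises the lipoyl arm and is shared with other complexes, fell in RNA from 32.0 and 34.8 RPKM to 27.8 and 25.9 RPKM (log2 difference -0.31 ± 0.08, SE, limma, adjusted p = 0.0105). Its footprints were 133.5 and 131.7 RPKM in WT and 79.1 and 83.6 RPKM in the KO-labelled libraries (log2 difference -0.70 ± 0.26, limma, adjusted p = 0.266, unadjusted p = 0.0464). The groups did not overlap in either readout, and the replicates lay close together. Without WT replicate 2 the RNA call was lost (limma, adjusted p = 0.113).

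Bckdha encodes E1 alpha, the decarboxylase subunit that carries the phosphorylation sites. Its RNA fell from 21.7 RPKM in both WT libraries to 19.4 and 16.4 RPKM (log2 difference -0.27 ± 0.09, SE, limma, adjusted p = 0.034). This call lay close to the threshold. It was lost without WT replicate 1 (limma, adjusted p = 0.127), WT replicate 2 (0.131) or KO-labelled replicate 2 (0.0923), with no filter (0.105), after median centring (0.0501) and in limma-voom (0.0552).

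The footprints of Bckdha were 83.4 and 105.9 RPKM in WT, and 18.5 and 155.4 RPKM in the KO-labelled libraries, from 9 and 57 reads. The KO-labelled libraries thus lay on either side of WT. Replicate 2 was 8.41-fold above replicate 1 (95% interval 4.13 to 19.3), a wider gap than for 96.9% of genes tested. The log2 difference was -0.78 ± 1.02 (SE, limma, adjusted p = 0.725). It turned to 0.72 without KO-labelled replicate 1 and was -2.29 without KO-labelled replicate 2. Each of these fits leaves 1 KO-labelled library and so cannot see the gap between the replicates. Input RNA of the same libraries showed no such gap.

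Bckdhb, the E1 beta partner of Bckdha, had too few footprints to test, at 11 and 3 reads in WT and 9 and 1 in the KO-labelled libraries. These gave 10.7 and 3.91 RPKM against 21.1 and 3.12 RPKM, and the groups overlapped. Its RNA was 11.04 and 11.38 RPKM in WT and 12.1 and 11.8 RPKM in the KO-labelled libraries. Dbt, the E2 core that carries the lipoyl arm, had footprints of 23.6 and 39.0 RPKM in WT and 30.4 and 37.8 RPKM in the KO-labelled libraries (log2 difference 0.15 ± 0.39, SE, limma, adjusted p = 0.859). The groups overlapped, and its RNA overlapped as well, at 3.25 and 2.43 RPKM against 3.16 and 3.98 RPKM (limma, adjusted p = 0.144). The 4 subunits of the complex thus shared no direction beyond their spread in footprints.

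Bckdk, the kinase that inactivates the complex, had the highest RNA per length of the 9 genes and few footprints. Its RNA was 71.2 and 72.9 RPKM in WT and 66.9 and 59.3 RPKM in the KO-labelled libraries. Its footprints were 14.4 and 10.2 RPKM in WT and 36.8 and 10.9 RPKM in the KO-labelled libraries, from 17, 9, 18 and 4 reads. KO-labelled replicate 1 stood above the other libraries, 3.39-fold over replicate 2 (95% interval 1.12 to 13.8). The gene was not tested, and its groups overlapped in footprints.

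Slc7a5, the transporting light chain, rose in RNA and was higher, without passing, in footprints. Its RNA went from 4.16 and 3.56 RPKM in WT to 6.18 and 8.91 RPKM in the KO-labelled libraries (log2 difference 0.80 ± 0.15, SE, limma, adjusted p = 0.00349), and with no filter on low values this missed the threshold (limma, adjusted p = 0.0525). Its footprints were 86.0 and 98.2 RPKM in WT and 132.3 and 163.8 RPKM in the KO-labelled libraries (log2 difference 0.67 ± 0.28, limma, adjusted p = 0.312). In both readouts every KO-labelled library lay above every WT library.

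Slc3a2, the heavy chain, did not pass in either readout. Its RNA was 48.8 and 48.3 RPKM in WT and 49.7 and 48.9 RPKM in the KO-labelled libraries (log2 difference 0.02 ± 0.06, SE, limma, adjusted p = 0.773). Its footprints were 180.1 and 169.0 RPKM in WT and 113.4 and 167.8 RPKM in the KO-labelled libraries (log2 difference -0.34 ± 0.31, limma, adjusted p = 0.614). KO-labelled replicate 2 lay just under the WT range, and replicate 1 well under it.

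The ratio of light to heavy chain was higher in the KO-labelled libraries in both readouts. In footprints it was 0.478 and 0.581 in WT and 1.17 and 0.976 in the KO-labelled libraries, a 2.03-fold difference of geometric means. In RNA it was 0.0853 and 0.0738 against 0.124 and 0.182, a 1.90-fold difference. The groups did not overlap, but 2 libraries against 2 allow no p below 0.333, which both ratios gave (exact permutation test, two-sided, 0.476 after Benjamini-Hochberg adjustment over 10 ratios). The ratio was chosen after its values were seen.

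**Figure D3:**
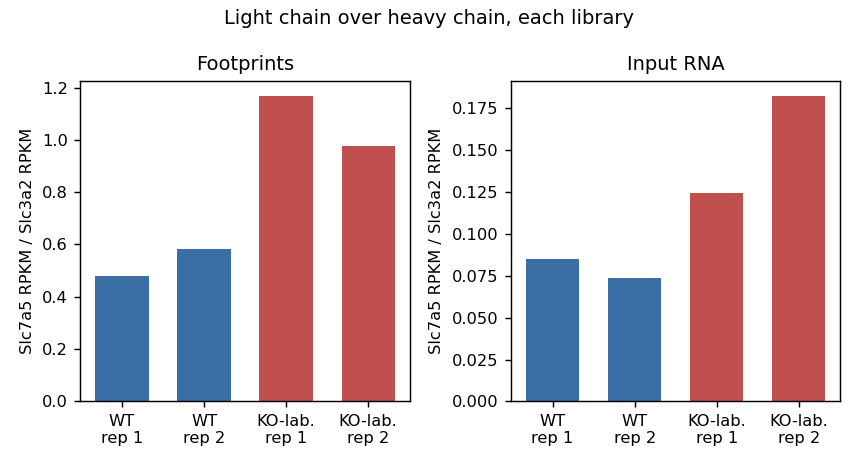
Slc7a5 RPKM over Slc3a2 RPKM in each library, footprints in one panel and input RNA in the other, on linear axes from 0; each bar is 1 library. The footprint ratio is 0.478 and 0.581 in WT and 1.17 and 0.976 in the KO-labelled libraries.

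Ordered by WT RNA per length, Bckdk came first, then Slc3a2, Bcat2, Dld, Bckdha, Bckdhb, Slc7a5, Dbt and Bcat1. Bcat2 and Dld did not differ beyond their spread in that order. In WT footprints per coding length the order was Slc3a2, Dld, Bckdha, Slc7a5, Bcat2, Dbt, Bckdk, Bckdhb and Bcat1, and the libraries of Bckdha and Slc7a5 overlapped, as did those of Bckdk and Bckdhb. Slc7a5, Dbt, Dld, Bckdha and Slc3a2 thus stood higher in the footprint order than in the RNA order, and Bckdk, Bcat2 and Bckdhb lower.

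Translational efficiency (TE), the authors' deposited ratio of footprint to RNA value, spread widely among the 9 genes. Slc7a5 had 16.9 and 21.7 in WT and 18.6 and 16.6 in the KO-labelled libraries, at the 98.8th percentile of 9074 genes with at least 100 input reads in every library. Dbt had 5.80 and 11.6 in WT and 7.54 and 7.80 in the KO-labelled libraries, at the 93.0th percentile in both groups. Bckdk was at the other end, with 0.213 and 0.152 in WT and 0.557 and 0.197 in the KO-labelled libraries, at percentiles 4.44 and 10.8. The median gene lay between 1.77 and 2.07 over the libraries. These ranks set footprints per coding length against RNA per longer counted length, so the length of the untranslated parts enters them.

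Dld, at 4.08 and 3.71 against 2.78 and 3.15, and Slc3a2, at 3.64 and 3.45 against 2.26 and 3.38, lay above the median gene in every library. Bcat2 had 2.28 and 2.21 in WT and 1.27 and 1.46 in the KO-labelled libraries, its percentile going from 54.4 to 39.7. Bckdha ranged from 0.957 to 9.01 between the KO-labelled libraries, around 3.72 and 4.72 in WT. Bckdhb had 0.972 and 0.396 in WT and 1.69 and 0.322 in the KO-labelled libraries. For Bcat1 the WT efficiency is a quotient of 2 values at the floor and carries no level, and the KO-labelled libraries had 9.88 and 7.50.

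Between the groups, 0 of the 6 tested genes other than Bcat1 passed in TE by limma, and 0 had an unadjusted p under 0.05. Of all genes tested 0% passed, 831 reached 0.05 before adjustment, and a limma-voom interaction fitted to the recovered reads passed 77. The groups did not overlap for 3 of the 6, beside 47.9% of the genes tested. The log2 difference of Bcat2 was -0.72 ± 0.32 (limma, adjusted p = 0.424), Dld -0.39 ± 0.31 (0.620) and Slc7a5 -0.12 ± 0.33 (0.893), and the sign of Slc7a5 turned under median centring, to 0.012. In the authors' deposited table the p-value column was under 0.05 for Bcat1 (0.0115), Bcat2 (0.00602) and Dld (0.0351). The value for Bcat1 rests on WT efficiencies at the floor and is no test of that gene. That column is headed as adjusted, but for 16250 of 16250 genes compared it lay within 1e-06 of an unadjusted, one-sided equal-variance test on TE, and 20.9% of its genes are under 0.05.

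**Figure D4:**
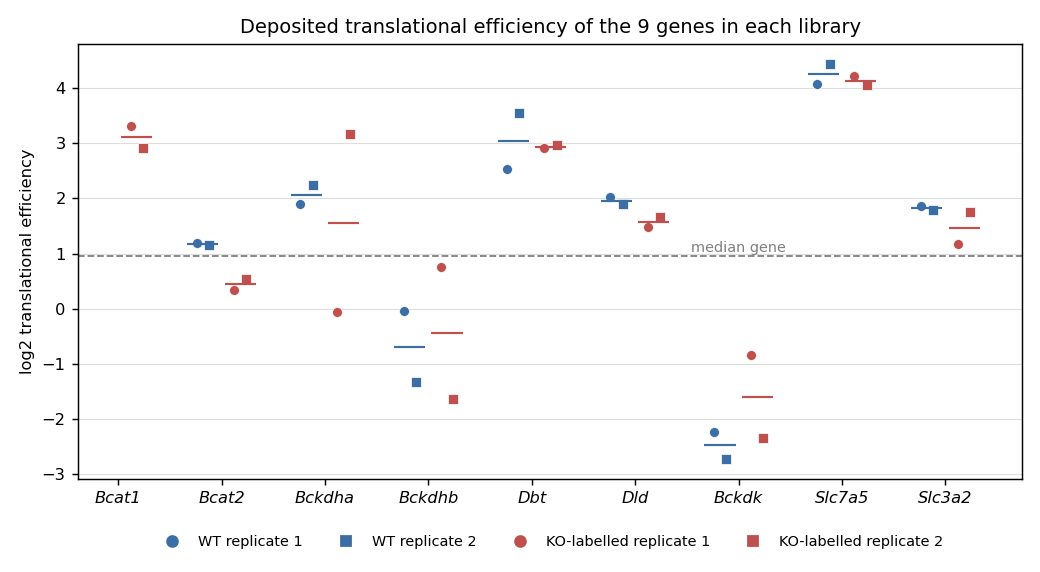
Deposited translational efficiency of the 9 genes in each library on a log2 scale; circles are replicate 1, squares replicate 2, blue WT and red KO-labelled, bars are group means and the dashed line is the median of 9074 genes, averaged over libraries. Slc7a5 and Dbt lie far above the line and Bckdk below it, and Bcat1 has no WT points because both WT values are quotients of the floor.

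Enzymes that take the ketoacids on to acetyl-CoA and succinyl-CoA were measured as a group downstream of the dehydrogenase. Of 24 such genes, 22 were in the table and 16 were tested, of which 2 rose and 6 fell in RNA (median log2 difference -0.16, against 0.04 for all genes tested). For this list and those below, the RNA counts stand beside 33.1% of all genes tested that rose and 27.7% that fell, and nothing particular to a list is read from its counts. Mmut, the vitamin B12-dependent mutase that makes succinyl-CoA, fell from 9.66 and 10.3 RPKM to 5.32 and 6.53 RPKM (log2 difference -0.67 ± 0.10, SE, limma, adjusted p = 0.00123). Pccb, a propionyl-CoA carboxylase subunit, fell by 0.41 on the log2 scale. Mccc1, a subunit of the carboxylase of the leucine branch, rose by 0.55. In footprints 0 of the 16 passed in limma, 5 had an unadjusted p under 0.05, all lower, and the median was -0.67. Of all genes tested, 18.2% had such a p, 12.4% being lower, and their median was -0.13.

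Among related kinases and phosphatases, 3 of 8 genes were tested, and 1 rose and 2 fell in RNA, where 60.8% of all genes tested passed. Pdk3, a kinase of the pyruvate dehydrogenase complex, rose from 18.4 and 19.5 RPKM to 40.0 and 35.9 RPKM (log2 difference 0.96 ± 0.08, SE, limma, adjusted p = 5.63e-05). Pdp1 and Pdpr, the catalytic and regulatory subunits of the opposing phosphatase, fell by 0.50 and 0.49. Of the other subunits of complexes that contain Dld, 6 of 10 were tested, and 0 rose and 3 fell, where 33.1% of all genes tested rose and 27.7% fell. These were Dlat, the E2 core of pyruvate dehydrogenase (log2 difference -0.61), Ogdh, the E1 of ketoglutarate dehydrogenase (-0.47), and Pdha1, the E1 alpha of pyruvate dehydrogenase (-0.35).

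Of 14 other amino acid carriers, most of them for neutral amino acids, 9 were tested, and 4 rose and 2 fell in RNA, where 60.8% of all genes tested passed. Slc38a1, a sodium-coupled glutamine carrier, rose from 4.91 and 4.95 RPKM to 15.4 and 15.9 RPKM (log2 difference 1.49 ± 0.08, SE, limma, adjusted p = 5.1e-06), and Slc7a6, another light chain that pairs with Slc3a2, rose by 0.97. Slc16a10, a carrier of aromatic amino acids, fell by 1.04, and Slc38a2, also a glutamine carrier, fell by 0.58.

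Genes of leucine sensing and mTORC1, the kinase complex that amino acids activate, gave 4 higher and 6 lower of 18 tested genes in RNA, where 33.1% of all genes tested were higher and 27.7% lower. Lamtor4, a part of the lysosomal scaffold, rose by 0.62, Wdr24 by 0.58 and the GTPase Rragc by 0.44, while the leucine sensor Sesn2 fell by 0.58. Of the genes of the ATF4 amino acid response, 10 were tested, and 2 rose and 3 fell, where 60.8% of all genes passed. Psph, the last enzyme of serine synthesis, fell from 14.7 and 14.6 RPKM to 7.09 and 4.98 RPKM (log2 difference -1.17 ± 0.14, SE, limma, adjusted p = 0.000316), the transcription factor Cebpb fell by 0.96 and the alanyl-tRNA synthetase Aars by 0.66, while Atf4 itself rose by 0.28.

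Enzymes that make or use glutamate and ketoglutarate, the partners of the Bcat1 reaction, gave 5 higher and 5 lower of 13 tested genes in RNA, beside 33.1% higher and 27.7% lower of all genes tested. Glul, which makes glutamine from glutamate, fell from 18.3 and 16.7 RPKM to 6.22 and 4.94 RPKM (log2 difference -1.49 ± 0.11, SE, limma, adjusted p = 3.47e-05). Glud1, glutamate dehydrogenase, fell by 0.89, and Idh1, the cytosolic isocitrate dehydrogenase, fell by 0.66. In each of these 7 lists 0 genes passed in footprints and in TE by limma.

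The 5 tested genes whose pattern was most like that of Bcat1, by the root mean square difference over 8 centred log2 values (footprints and RNA in 4 libraries), were Atp1b1 (0.196), Col6a3 (0.335), Faim2 (0.350), Clgn (0.370) and Ndrg2 (0.404). The median of the other genes was 2.26. Atp1b1, a sodium pump subunit, had footprints of 9.99 and 6.68 RPKM in WT and 433.7 and 331.9 RPKM in the KO-labelled libraries. Col6a3, a collagen chain, Faim2, Clgn and Ndrg2 had 0 footprint reads in both WT libraries, as Bcat1 did, and passed the filter through the KO-labelled libraries alone. All 5 genes were picked on these same values, so their likeness to Bcat1 follows from the choice and is no further result.

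Markers of several cell types moved with Bcat1. In RNA, the 11 stem and progenitor markers in the table summed to 252 to 280 RPKM in WT and 436 to 458 RPKM in the KO-labelled libraries, with 10 of 11 higher, while their footprints summed to 1124 to 1139 RPKM and 1143 to 1280 RPKM. The 16 myeloid differentiation markers summed to 35994 to 36890 RPKM against 14847 to 15399 RPKM, with 12 of 16 lower, and their footprints to 73000 to 85637 RPKM against 23748 to 34322 RPKM. Most of the fall in RNA was Chil3 (10543 and 10534 against 313 and 291 RPKM) and Lyz2 (5515 and 5526 against 920 and 819 RPKM). Among the 4 that were higher, Ly6c2 went from 232 and 211 to 645 and 705 RPKM, and Prtn3 from 823 and 798 to 1334 and 1357 RPKM. The 8 mast cell and basophil markers summed to 30.5 to 33.1 RPKM in WT and 298 to 308 RPKM in the KO-labelled libraries, with 7 of 8 higher, most of it Cpa3, the mast cell carboxypeptidase, and their footprints to 52.4 to 58.8 RPKM against 815 to 938 RPKM. Among them the basophil proteases Prss34 (0 RPKM of RNA in both WT libraries, 6.14 and 5.48 RPKM in the KO-labelled libraries) and Mcpt8 (19.0 and 14.7 against 42.2 and 44.8 RPKM) were higher, as was Hdc (9.74 and 10.8 against 18.7 and 14.5 RPKM). Cma1 and Ms4a2 were under 1 RPKM in every library.

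The 6 eosinophil markers summed to 62.9 to 63.3 RPKM in WT and 337 to 343 RPKM in the KO-labelled libraries, with 5 of 6 higher, and their footprints to 139 to 172 RPKM against 515 to 667 RPKM. Most of the rise in RNA was Prg2 (4.68 and 5.91 against 203 and 199 RPKM) and Prg3 (0.606 and 0.580 against 68.02 and 63.33 RPKM). Their Epx was at 0 and 0.0402 RPKM of RNA in WT and 13.8 and 10.4 RPKM in the KO-labelled libraries. Ear2 went the other way, from 7.49 and 6.74 to 2.94 and 3.10 RPKM of RNA. Siglecf made up most of the WT sum and was only slightly higher in RNA, while Ear1 was under 1 RPKM in every library. The 11 erythroid markers summed to 81.7 to 90.4 RPKM against 430 to 523 RPKM, with 10 of 11 higher, while their Klf1 was under 1 RPKM in every library. Erythroid footprints summed to 84.1 and 199.8 RPKM in WT and 1170 and 134.9 RPKM in the KO-labelled libraries. The 12 T and NK cell markers summed to 19.2 to 19.3 RPKM against 370 to 438 RPKM, all 12 higher, nearly all of it Nkg7, and 8 of the 12 were under 1 RPKM in every library. Their footprints summed to 92.6 to 132.5 RPKM against 138.5 to 173.5 RPKM.

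All 5 megakaryocyte and platelet markers were higher, summing to 1.99 to 2.55 RPKM against 23.6 to 25.5 RPKM, mostly Itga2b, while Gp9 and Ppbp were under 1 RPKM in every library. All 6 stroma and endothelium markers were higher too, at 12.1 to 12.4 RPKM against 75.8 to 82.9 RPKM, mostly Pecam1 and Pdgfrb, and the collagen genes Col1a1 (0.215 and 0.268 against 4.56 and 5.66 RPKM) and Col6a3 (0.0131 and 0.00921 against 2.52 and 2.60 RPKM) were higher, while Cxcl12 and Sparc were under 1 RPKM in every library. The 5 B and plasma cell markers (43.4 to 45.3 against 28.9 to 31.7 RPKM, 3 of 5 lower) and the 11 macrophage and dendritic markers (435.8 to 436.2 against 297 to 316 RPKM, 5 of 11 lower) had lower sums. The stem and progenitor list shares Kit and Gata2 with the mast cell list, and Col6a3 is also in the stroma list. The part of these cell types in the Bcat1 difference and in the other RNA differences was not tested.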

How the data were processed

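Footprints and input RNA were measured in 4 libraries, 2 per group. The submitters' processing notes list HISAT2 2.1.0, CASAVA, DESeq2 and featureCounts without roles, and a human build, hg38, for these mouse samples; no annotation is named. By their values, the authors' deposited footprint columns hold RPKM with 1 added. The authors' deposited TE is the ratio of such a footprint value to the RNA value, floored alike, and the deposited p-value column was used only as the authors' values. RNA was taken as footprint value over TE, minus 1.

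Steps in the RPKM values gave whole reads for 10536 of 10536 genes with footprints in at least 2 libraries (tolerance 0.002 reads); on simulated data 95.3% were exact and 4.72% were off by a common factor, which leaves ratios as they are. The coding length of Bcat1 came out as 725, the smallest that fits, so its reads may be a common multiple of those given. Tests covered the 6390 genes with a CPM (reads scaled to the library's total) of 20 or more in 2 or more libraries. The trend version of limma (3.58.1, R 4.3.3), with no term but group, was fitted to log2(RPKM + 1) and to log2 TE, two-sided, with Benjamini-Hochberg adjustment over all genes tested at 0.05; the pseudocount of 1 understates differences of low genes. In a simulation of the footprint comparison over 6390 genes, 70% of changes of log2 size 2 and 96% of size 3 were recovered. It gave both groups the same fixed spread beyond counting error, while the KO-labelled replicates here differed more than the WT replicates. These shares therefore need not hold for the real libraries. Python 3.11.15 did the rest.

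The genes, lists and tests were chosen with earlier results of these data known. Named genes are the 9 genes, Rreb1, up to 4 passing genes per list by size of difference (some are not reported here), and the 5 genes most like Bcat1. Alternatives were other pseudocounts, filters, centring, a replicate block, leaving out each library, and limma-voom on recovered reads. The limma-voom fits of RNA and TE and a crossed block were added after seeing the data. Libraries differed by more than sampling noise (chi-square per gene of footprint reads 5.69 in WT and 14.5 in the KO-labelled pair).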

Additional observations from a re-analysis of the deposited data

How the results depend on the processing

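Depth limits the footprints: 1 read on a gene of 1 kilobase is worth 1.14 RPKM in WT replicate 1 and 3.65 RPKM in KO-labelled replicate 2, and Bckdhb and Bckdk were under the filter. The count of genes passing in footprints, 68 in limma, was 109 with a pseudocount of 4, 120 with a filter of 50 CPM, 0 with no filter (1674 at an unadjusted p under 0.05), and 0 to 1089 leaving out 1 library. It was 0 without WT replicate 1 or WT replicate 2 (395 and 420 at an unadjusted p under 0.05), 331 without KO-labelled replicate 1 and 1089 without KO-labelled replicate 2, and 72 in limma-voom, 48 of them shared. In RNA, 3882 genes passed, 6286 with no filter, 2452 with 50 CPM and 2682 to 3919 leaving out 1 library. In TE, 0 passed (831 at an unadjusted p under 0.05), 1 with a pseudocount of 4, 1 with 50 CPM, 77 in the limma-voom interaction, and 0 to 700 leaving out 1 library, the counts above 0 being 149 without KO-labelled replicate 1 and 700 without KO-labelled replicate 2.

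With the replicate block, 32 genes passed in footprints and 3479 in RNA, and no call among the 6 tested genes other than Bcat1 changed. Replicate numbers did not pair the libraries: same-numbered deviations correlated at 0.02 (footprints), -0.34 (RNA) and 0.01 (TE). A crossed pairing, added after seeing the data, gave 4396 genes in RNA.

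Leaving out 1 library, the log2 difference of Bckdha ranged from -2.29 to 0.72 in footprints and from -2.13 to 1.11 in TE, that of Dbt from -0.20 to 0.50 in footprints and from -0.60 to 0.40 in TE, and that of Slc7a5 from -0.31 to 0.060 in TE. Among the untested genes, Bckdhb ranged from -0.88 to 1.55 in footprints and from -0.95 to 1.44 in TE, and Bckdk from -0.15 to 1.52 in footprints. Median centring gave Dbt 0.036 and Slc7a5 0.012 in TE, and a pseudocount of 4 gave Slc7a5 0.11. For Bcat1 the voom interaction turned the TE difference to -3.04, a value that rests on WT libraries with 0 footprint reads. The cause of these turns was not tested otherwise. Of 198 values of the 6 tested genes other than Bcat1 under alternatives, 8 turned sign, 8 lost the call and 2 gained it. The 2 gained were Bckdha in footprints and in TE without KO-labelled replicate 2, a fit with 1 KO-labelled library left. Of 48 values of Bckdhb and Bckdk, 5 turned sign, and of 30 of Bcat1, 1 did.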

Other observations

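The counted lengths recovered from the values differ between the readouts. Input lengths were at least as long as footprint lengths for 98.9% of genes, with a median of 2.86 times, and multiples of 3 made up 70.8% of footprint lengths and 34.0% of input lengths. For Bcat1 the input length was 9322 bases against 725 for footprints, the smallest that fits, and for Bckdha it was 1899 against 1338. A deposited TE therefore sets a density over coding sequence against one over a longer stretch, which affects comparing it between genes. Comparing 1 gene between libraries is free of this only where the libraries use the same transcript forms, which was not tested. Without the added floor of 1 RPKM the Bcat1 efficiency would be 11.7 and 8.76 in KO-labelled replicates 1 and 2, in place of 9.88 and 7.50.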
